A study of Mus musculus with 16 samples.

Results

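The comparison of lipopolysaccharide (LPS) with PBS in hippocampus of mice lacking Tspo was taken as the 4 libraries labelled KO LPS against the 4 labelled KO PBS, which are 8 of the 16 RNA-seq libraries of the series. All genes were considered. The other 8 libraries are wild type, 4 with PBS and 4 with LPS, and serve only to show where the knockout differs. All 4 groups come from mice of 3 months, and the 2 genotypes are labelled TSPOKO and WT. The labels give no strain, Tspo allele, LPS dose, route of injection or time to tissue collection, and do not say if replicates come from different animals. A p-value here therefore measures the spread between these libraries, which may be technical. The 8 knockout libraries held 30240595 to 42375785 counts, so that 3 counts correspond to 0.0708 to 0.0992 CPM (counts normalised to the size of the library).

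TSPO is a protein of the outer mitochondrial membrane, present at low level in resting brain and at higher level in activated microglia and astrocytes, which is why its ligands are used to image neuroinflammation. LPS, a component of the outer membrane of Gram-negative bacteria, is bound by CD14, MD-2 and the receptor TLR4. TLR4 signals through MYD88 to NF-kappaB, which turns on cytokine and acute-phase genes, and through TRIF to type I interferon, whose receptor turns on the interferon-stimulated genes. After a peripheral injection, endothelium, perivascular cells, microglia and astrocytes of the brain take part in this response.

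The interferon-stimulated response element, a DNA element in promoters of many genes that interferon induces, is shown for 3 genes because interferon-stimulated genes form a large group in the wild-type response and the knockout values below return to them. The pattern searched was GAAANNGAAA on either strand, in the 150 bases before the start of each gene in the RefSeq promoter table for GRCm38.p6. It was found before 18 of the 37 interferon-stimulated genes with an entry (48.6%, of 50 listed) and before 499 of 27025 genes in the table (1.85%). Matches are in capitals, and each sequence runs 5′ to 3′ on the plus strand, which is the strand of the gene. A match is a description of letters and not a site shown to be used.
Ifit1 (chr19:34640739-34640888): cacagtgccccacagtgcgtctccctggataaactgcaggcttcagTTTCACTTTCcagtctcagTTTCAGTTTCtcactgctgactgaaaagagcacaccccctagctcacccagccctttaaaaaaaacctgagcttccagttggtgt
Gbp2 (chr3:142620513-142620662): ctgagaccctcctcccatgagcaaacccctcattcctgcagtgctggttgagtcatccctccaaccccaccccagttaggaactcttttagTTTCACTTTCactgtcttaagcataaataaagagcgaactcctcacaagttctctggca
Herc6 (chr6:57580842-57580991): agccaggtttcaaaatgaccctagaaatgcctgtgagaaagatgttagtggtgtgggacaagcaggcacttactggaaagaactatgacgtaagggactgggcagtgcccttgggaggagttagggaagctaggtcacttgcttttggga
Ifit1 holds 2 matches, starting 104 and 85 bases before the gene's start, Gbp2 holds 1, starting 59 bases before it, and the Herc6 window holds 0. The values of all 3 genes are given below.

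Tspo (ENSMUSG00000041736; chromosome 15, 83563592 to 83574203, GENCODE M21 on GRCm38) held 98, 5, 10 and 14 counts in the libraries labelled KO PBS 1 to 4, or 2.33, 0.152, 0.28 and 0.47 CPM. Its counts in KO LPS 1 to 4 were 20, 15, 10 and 7, or 0.486, 0.366, 0.274 and 0.209 CPM. The library labelled KO PBS 1 stood inside the range of the wild-type PBS libraries (2.06 to 5.17 CPM) and so went against its label, while the other 7 knockout libraries were below that range. The KO LPS and KO PBS values overlapped, and the difference of mean log2 CPM was -0.53 (exact two-sided permutation p = 0.714; the smallest that 4 against 4 can give is 0.0286). Without the library labelled KO PBS 1 that difference was 0.18 (exact p = 0.686).

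Lcn2, the gene of lipocalin-2, which withholds iron from bacteria and is secreted in inflammation, held 1, 2, 2 and 9 counts in the libraries labelled KO PBS and 0, 0, 4 and 4 in KO LPS. The groups overlapped and 7 of the 8 libraries held 4 counts or fewer, so no fold is given (difference of mean log2 CPM -0.52, exact permutation p = 0.543). In wild-type LPS 2, 3 and 4 the same gene held 11917, 7104 and 9361 counts, whereas wild-type LPS 1 held 21. S100a8, a calcium-binding protein of neutrophils, held 1, 4, 0 and 4 counts in the libraries labelled KO PBS and 0, 6, 13 and 24 in KO LPS. KO LPS 3 and 4 were above every library labelled KO PBS, and KO LPS 1 was at 0 (difference 1.15, exact permutation p = 0.257). Without KO LPS 1, the library at 0, the difference was 1.87. KO LPS 2, 3 and 4 lie above every library labelled KO PBS, KO LPS 2 with 6 counts against at most 4. That fixes the exact permutation p at 0.0286, the smallest that 3 against 4 can give, so this p is no support.

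**Figure D1:**
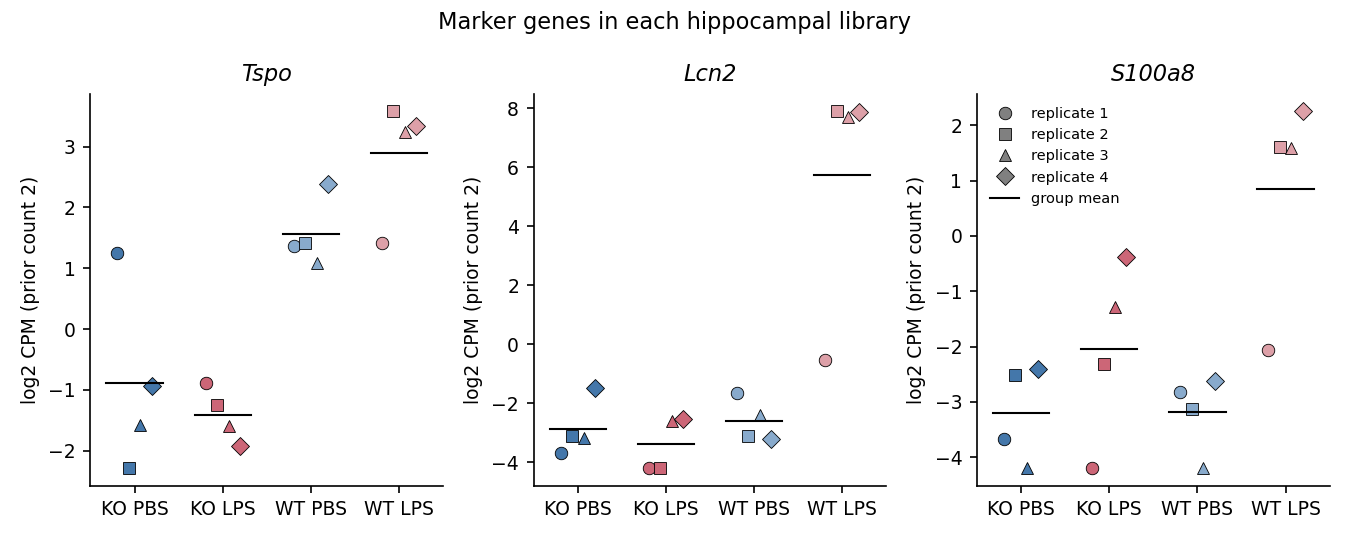
Tspo, Lcn2 and S100a8 in log2 CPM (prior count of 2, vertical axis) in each of the 16 libraries, by group (horizontal axis), with a symbol for each replicate number and a line at the group mean. Wild-type LPS 2 to 4 lie far above all other libraries for Lcn2 (238, 209 and 237 CPM), no KO LPS library comes near them, and the library labelled KO PBS 1 lies among the wild-type PBS libraries for Tspo.

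Several libraries stood apart before any comparison. The library labelled KO PBS 2 held cerebellar transcripts: the granule cell gene Cbln3 was at 302 CPM against at most 0.804 CPM in the other 7, and Fat2, a granule cell cadherin, held 6718 counts against at most 14. Pcp2, a Purkinje cell gene, held 2152 counts there against at most 13. Striatal genes divided the knockout libraries in another way. Ppp1r1b, the striatal phosphatase inhibitor DARPP-32, was at 328, 87.3, 243 and 84.8 CPM in the libraries labelled KO PBS 1 to 4 and at 303, 116, 281 and 108 CPM in KO LPS 1 to 4. High and low libraries were thus spread over both groups. Both knockout groups held 2 male and 2 female libraries by the level of Ddx3y, the only sex-linked transcript read for this. The male ones were the libraries labelled KO PBS 2 and 3, and KO LPS 3 and 4. In wild type only PBS 4 and LPS 1 were male. Each title carries a code of unstated meaning, and none of the 4 codes of KO PBS recurs among the 3 of KO LPS, so that code and treatment cannot be told apart. The code of the library labelled KO PBS 4 recurs in wild-type LPS 2, 3 and 4. In wild type, LPS 1 was at the PBS level for genes in which LPS 2 to 4 were high. LPS 1 is the male library of its group, and its code, A9, differs from the code B9 of LPS 2 to 4. Sex, code and response can therefore not be told apart in wild-type LPS. Wild-type PBS 4 also carries A9, and wild-type PBS 1 to 3 carry A10, so code and treatment largely go together in wild type. Irf7, the master regulator of the interferon response, was at 1.44 CPM in wild-type LPS 1 and at 21.4, 23 and 20.2 CPM in the other 3. All groups share 1 estimate of the spread in the fit of 16 libraries. The median half-width of the 95% interval of the knockout log2 fold change over interferon-stimulated genes was 0.89 in that fit and 0.42 in a fit of the 8 knockout libraries alone, which is therefore given beside it.

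No gene passed the test in the knockout. Of 16269 genes tested with edgeR over all 16 libraries, 0 (0%) had an adjusted p below 0.05, and the smallest adjusted p was 0.703. At an unadjusted p below 0.05 there were 1120 genes (6.88%), 484 higher after LPS (2.97%) and 636 lower (3.91%). The 4 KO LPS libraries lay apart from the 4 labelled KO PBS in 1065 genes (6.55%), 494 with LPS higher (3.04%) and 571 with LPS lower (3.51%). The same share in wild type was 8.62%. DESeq2 called 3 genes and limma-voom with sample weights 0. The fit of the 8 knockout libraries alone called 0 of 15868 genes, with a smallest adjusted p of 0.333 and 1894 genes (11.9%) at an unadjusted p below 0.05. Leaving out both the library labelled KO PBS 1 and the library labelled KO PBS 2 gave 0 calls over the other 14 libraries and 0 over the other 6 knockout libraries.

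The intervals say how large a change these libraries leave room for. For 13967 genes (85.9%) the 95% interval of the knockout log2 fold change lay inside 2-fold in either direction, and the median half-width of the interval was 0.24. In the fit of the 8 knockout libraries alone the figures were 14415 genes (90.8%) and 0.21. In wild type 1394 genes (8.57%) were called, 768 higher (4.72%) and 626 lower (3.85%). The 768 had a median log2 fold change of 0.81 in wild type and -0.05 in the knockout, where the median over all genes was -0.01. In the fit of 16 libraries 601 of the 768 (78.3%) had an interval inside 2-fold. Of these 768 genes, 734 could be tested in the 8 knockout libraries alone, and 681 of them (92.8%) had an interval inside 2-fold. The 626 called lower in wild type had a median of -0.49 there and 0.01 in the knockout. The difference of the LPS effect between the genotypes passed in 187 genes (1.15%), 97 of them lower and 90 higher in the knockout. That count moved widely: it was 1281 with DESeq2 and 2655 without wild-type LPS 1. It was 0 without the libraries labelled KO PBS 1 and KO PBS 2, and 0 with wild-type PBS 2 and 3 summed. Genes picked below on knockout or wild-type values were partly picked on this difference, so a pass among them is a description.

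**Figure D2:**
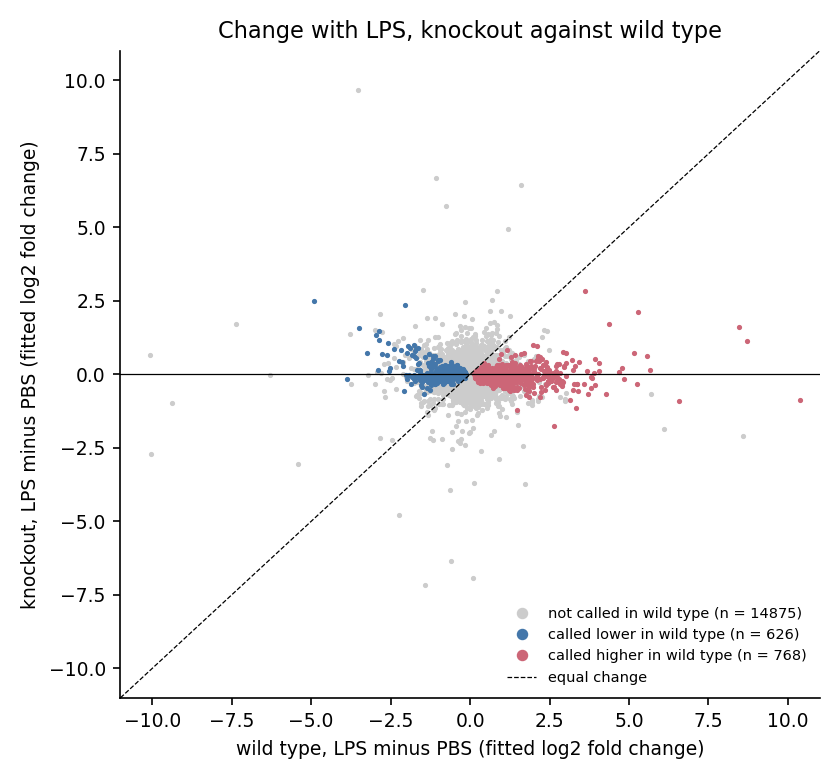
Fitted log2 fold change from PBS to LPS of each of the 16269 genes tested, in wild type (horizontal axis) and knockout (vertical axis), coloured by whether the gene was called in wild type, with a dashed line of equal change. The genes called in wild type lie along the horizontal line at 0, with medians of -0.05 (called higher) and 0.01 (called lower) in the knockout.

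Among the genes that sense LPS and pass its signal on, no member differed between KO LPS and KO PBS by the test. Of 13 genes of the LPS sensing complex and its adaptors, all tested, 0 had an unadjusted p below 0.05, and their median log2 fold change was 0.01 (0.47 in wild type, 3 called higher there). Ticam2, the adaptor that links TLR4 to TRIF, was at 0.759, 0.849, 0.532 and 0.403 CPM in the libraries labelled KO PBS and at 0.778, 0.78, 0.822 and 0.954 CPM in KO LPS. The groups overlapped only at the library labelled KO PBS 2, and the log2 fold change of 0.38 (95% interval -0.4 to 1.16) was 0.83 without the libraries labelled KO PBS 1 and KO PBS 2. The members Tirap, Ly96 and Irak1 had smaller p and went the other way. Their log2 fold changes were -0.35, -0.52 and -0.1 in the knockout libraries alone, and -0.55, -0.53 and -0.16 without those 2 libraries. Over the list 8 of 13 estimates were above 0. Map3k7, the kinase TAK1 at which MYD88 signalling branches to NF-kappaB, was at 62.6 to 67.5 CPM in all 8 libraries, with a log2 fold change of 0.02 (-0.07 to 0.11).

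Among 14 NF-kappaB subunits and feedback inhibitors the knockout median was -0.04 (0.46 in wild type, 5 called higher), and 0 had an unadjusted p below 0.05. Nfkbiz, an inducible IkappaB protein needed for secondary response genes, was at 7.33, 9.01, 7.47 and 9.46 CPM in the libraries labelled KO PBS and at 7.03, 7.56, 5.78 and 7.75 CPM in KO LPS. The groups overlapped, and the log2 fold change was -0.24 (-0.66 to 0.17) against 0.77 in wild type, where it was called. Tnip1, which restrains NF-kappaB together with A20, was at 24.8, 23.4, 24.5 and 23.5 CPM and then 26.1, 26.7, 25.7 and 24.1 CPM, with a log2 fold change of 0.09 (-0.02 to 0.21).

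In the IL-6 pathway the 10 genes tested had a knockout median of 0.06 (0.23 in wild type, 4 called higher). Socs3, the feedback inhibitor of IL-6 receptor signalling, was at 1.61, 1.46, 1.48 and 0.906 CPM in the libraries labelled KO PBS and at 1.58, 2.05, 2.36 and 3.16 CPM in KO LPS. KO LPS 2, 3 and 4 were above all 4 libraries labelled KO PBS and KO LPS 1 was not (log2 fold change 0.73, 0.08 to 1.38). In wild type its log2 fold change was 1.69 and was called, and the difference between genotypes did not pass (adjusted p = 0.204, edgeR). Socs1, the inhibitor of interferon receptor signalling, was at 0.569, 0.698, 0.84 and 0.503 CPM and then 0.851, 1.05, 1.07 and 0.894 CPM, so that the groups lay apart (0.56, -0.02 to 1.14). Stat3, the transcription factor that IL-6 activates, stayed between 48.1 and 50.3 CPM in all 8 libraries, with a log2 fold change of 0.01 (-0.27 to 0.3).

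Of 24 cytokines and chemokines listed, 14 passed the filter on low counts, with a knockout median of -0.02 (1.11 in wild type, 8 called higher and 1 lower). Il1b, the inflammasome-processed cytokine, was at 0.0949, 0.121, 0.308 and 0.235 CPM in the libraries labelled KO PBS and at 0.146, 0.146, 0.137 and 0.119 CPM in KO LPS, overlapping and close to the level of 3 counts (-0.44, -1.48 to 0.6, and -0.96 without the libraries labelled KO PBS 1 and KO PBS 2). The 10 that did not pass the filter include Tnf, with 0 to 1 counts in the libraries labelled KO PBS and 2 to 4 in KO LPS, and Il6, with 0 to 2 and 0 to 4. Both are named because they are the best-known LPS cytokines, and after their values were seen. For Tnf every KO LPS library held more counts than every library labelled KO PBS, at 4 counts or fewer throughout, and for Il6 the groups overlapped. Neither was tested. Cx3cl1, the neuronal chemokine that acts on microglia, was the most abundant at 498 to 705 CPM and 629 to 735 CPM, with overlapping groups.

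The acute-phase genes that could be tested had mostly lower values in KO LPS, and none passed the test. Of 18 listed 10 were tested, with a knockout median of -0.22 and 1 estimate above 0, against a median of 3.49 and 8 called higher in wild type. Serpina3n, a serine protease inhibitor of reactive astrocytes and the liver acute phase, was at 39.7, 31.2, 36.9 and 47 CPM in the libraries labelled KO PBS and at 31, 27.6, 23.7 and 22.8 CPM in KO LPS. Every KO LPS library was below every library labelled KO PBS for Serpina3n. Its log2 fold change was -0.56 (-1.93 to 0.82) over all 16 libraries and -0.55 (-0.85 to -0.26) over the 8 knockout libraries, against 3.4 in wild type. Cp, the copper-carrying ferroxidase ceruloplasmin, was at 12.7 to 16.5 CPM in all 8, overlapping (-0.04, -0.8 to 0.73), against 2.12 in wild type. Lrg1, a leucine-rich glycoprotein of the acute phase and of inflamed vessels, was at 0.356, 0.576, 0.336 and 0.839 CPM and then 0.17, 0.439, 0.466 and 0.596 CPM. The groups overlapped, and the difference between genotypes of -3.9 passed the test. Timp1 was the 1 tested member with an estimate above 0 (0.74, against 5.15 in wild type). Of the 8 members below the filter, Hp is named after its values were seen. It held 6, 4, 4 and 3 counts in the libraries labelled KO PBS and 8, 11, 8 and 7 in KO LPS, higher in every KO LPS library. The others below the filter overlapped, and none of the 8 was tested.

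No interferon-stimulated gene passed the test in the knockout, and their estimates were centred on 0. Of 50 listed 49 were tested, with a knockout median of -0.01, 24 estimates above 0, and 0 at an unadjusted p below 0.05. In wild type 41 of the 49 were called higher (median 1.86), and for 13 of them the difference between genotypes passed. The interval lay inside 2-fold for 22 of the 49. In the 8 knockout libraries alone 46 could be tested, 41 of them with an interval inside 2-fold, and the median was 0.01. There 3 had an unadjusted p below 0.05 (11.9% of all genes), all higher: Ifit1, Ifi27l2a (0.97, 0.04 to 1.9) and Irgm2 (0.28, 0.03 to 0.54). Ifi27l2a, an interferon-induced membrane protein, held 3 to 14 counts in the libraries labelled KO PBS and 8 to 24 in KO LPS, and Irgm2, an immunity-related GTPase, is named after its value was seen. Ifit1, which binds foreign RNA and carries 2 matches in its promoter above, was at 1.28, 0.971, 1.65 and 0.906 CPM in the libraries labelled KO PBS and at 1.85, 1.71, 1.48 and 1.82 CPM in KO LPS. KO LPS 1, 2 and 4 lay above the libraries labelled KO PBS, KO LPS 3 among them (0.5, -0.28 to 1.29, or 0.03 to 0.98 in the knockout libraries alone, against 2.26 in wild type).

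Gbp2, a guanylate-binding GTPase that attacks pathogen vacuoles, was at 1.87, 2.61, 3.05 and 2.62 CPM in the libraries labelled KO PBS and at 3.09, 2.41, 2.6 and 3.07 CPM in KO LPS. The groups overlapped and the log2 fold change was 0.14 (-0.92 to 1.21), or 0.14 (-0.25 to 0.53) in the knockout libraries alone, against 3.24 in wild type. Guanylate-binding and Ifitm genes have close copies, so their separate levels are uncertain. Irf7 was at 1.8, 1.91, 1.34 and 1.48 CPM and then 0.997, 1.39, 1.45 and 1.4 CPM (-0.32, -1.49 to 0.84, or -0.75 to 0.12 in the knockout libraries alone). For Gbp4, another guanylate-binding protein, Ifitm3, a membrane protein that blocks virus entry, and Psmb8, a subunit of the immunoproteasome, the knockout log2 fold changes were -0.35, -0.26 and -0.08, against 3.36, 2.93 and 2.72 in wild type. Their libraries overlapped between KO LPS and KO PBS, and the difference between genotypes passed for all 3. All 3 were named for their wild-type rise, which that difference also holds.

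Complement and antigen presentation genes were also centred near 0 in the knockout. The 21 complement genes tested of 23 listed had a knockout median of -0.02 (1.29 in wild type, 14 called higher), and the 24 genes of MHC and antigen presentation -0.07 (1.14, 17 called higher). C4b, the classical pathway component made by astrocytes and microglia, was at 51.6, 38.1, 47.4 and 54.9 CPM in the libraries labelled KO PBS and at 46.7, 41.2, 32.4 and 42.2 CPM in KO LPS. The groups overlapped (-0.24, -1 to 0.52, against 1.77 in wild type). C1qa, a chain of the complement trigger C1q, was at 30.8 to 38.2 CPM and 31.7 to 34.1 CPM (-0.07, -0.63 to 0.48). B2m, the light chain of MHC class I, was at 42.4 to 47.7 CPM and 42.3 to 49 CPM, with a log2 fold change of 0.03 (-0.45 to 0.52) against 1.19 in wild type.

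**Figure D3:**
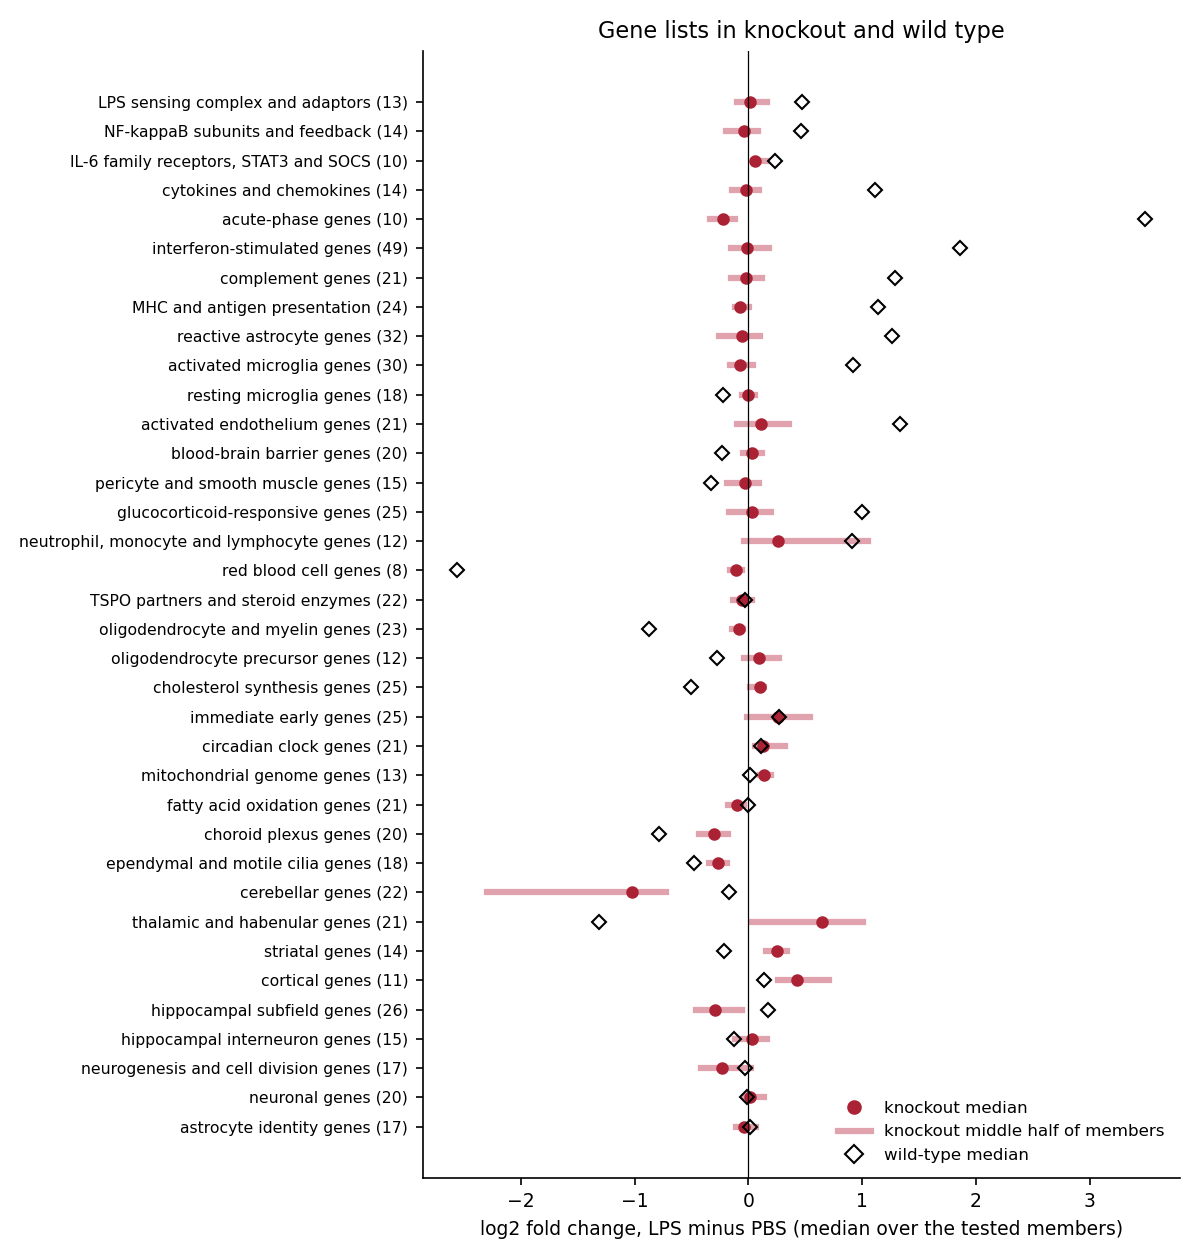
Median log2 fold change from PBS to LPS (horizontal axis) of the tested members of each of 36 gene lists, with the number tested in brackets. Filled circles are the knockout median, bars its members from the lower to the upper quartile, and open diamonds the wild-type median. Interferon-stimulated genes have a median of -0.01 in the knockout and 1.86 in wild type, and the largest knockout displacement, -1.02, is that of cerebellar genes, which the library labelled KO PBS 2 carries.

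Reactive astrocyte genes, none of which passed the test, stood lower in KO LPS where the groups lay apart. Of 35 listed 32 were tested, with a knockout median of -0.06 (1.26 in wild type, 21 called higher). In 5 of them every KO LPS library was below every library labelled KO PBS, while in 0 it was above. Over all genes those shares were 3.51% and 3.04%. Gfap, the intermediate filament by which reactive astrocytes are recognised, was at 366, 301, 340 and 384 CPM in the libraries labelled KO PBS and at 278, 249, 253 and 292 CPM in KO LPS. The groups lay apart. The log2 fold change was -0.38 (-1.08 to 0.33) over all 16 libraries, -0.37 (-0.55 to -0.19) in the 8 knockout libraries and -0.43 without the libraries labelled KO PBS 1 and KO PBS 2, against 1.68 in wild type. In bulk RNA a lower value can be fewer cells of a type or less RNA in each, which cannot be told apart here. Vim, the intermediate filament that accompanies Gfap, was at 36.7, 59.5, 39.4 and 36 CPM and then 34, 28, 28.7 and 33.1 CPM, again apart (-0.47, -1.11 to 0.17). The library labelled KO PBS 2 was the highest, and the log2 fold change was -0.28 without the libraries labelled KO PBS 1 and KO PBS 2. Ptx3, a secreted pentraxin, was at 0.364 to 0.498 CPM and then 0.0975 to 0.247 CPM, apart but near the level of a few counts (-1.18, -2.26 to -0.1). B3gnt5, a glycolipid synthase, was at 6.22 CPM in the library labelled KO PBS 2 and at 0.658 to 1.37 CPM in the other 7, so its low p (0.00647, unadjusted, edgeR) went with the cerebellar library, and the log2 fold change of -1.58 was -0.6 without the libraries labelled KO PBS 1 and KO PBS 2.

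No microglial gene passed the test. The 18 genes of resting microglia had a knockout median of 0 (-0.22 in wild type, 1 called higher and 4 lower) and the 30 tested genes of activated microglia -0.07 (0.92, 19 called higher). Csf1r, the receptor on which microglia depend for survival, was at 80.1, 76.6, 84.4 and 87.3 CPM in the libraries labelled KO PBS and at 91.9, 79.5, 95.4 and 78.5 CPM in KO LPS, overlapping (0.07, -0.18 to 0.32). Apoe, the lipid carrier of astrocytes and activated microglia, was at 1140 to 1250 CPM and then 1040 to 1190 CPM, also overlapping. Cd9, a tetraspanin of activated microglia and of myelinating cells, was at 41.7, 40.3, 45.4 and 42.5 CPM and then 37.6, 34.9, 36.2 and 38.3 CPM, with the groups apart (-0.21, -0.58 to 0.16).

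Endothelial genes included some with higher values in KO LPS, and none passed the test. Of 21 genes of activated endothelium tested, 2 had an unadjusted p below 0.05, both higher. Over all genes the share was 6.88%, with 2.97% higher. The median of the 21 was 0.11 (1.33 in wild type, 13 called higher). Icam1, the adhesion molecule that leukocytes bind, was at 1.78, 1.33, 1.88 and 1.64 CPM in the libraries labelled KO PBS and at 1.95, 1.46, 1.62 and 4.32 CPM in KO LPS, with KO LPS 4 above the rest (0.48, -0.61 to 1.58, against 3.2 in wild type). Angpt2, the vessel-destabilising angiopoietin, was at 1.01 to 1.43 CPM and then 1.56 to 2.24 CPM, apart (0.55, 0 to 1.11).

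Of 20 blood-brain barrier genes, 3 had an unadjusted p below 0.05 (6.88% of all genes), all higher in KO LPS. In wild type 6 were called lower. Abcg2, an efflux transporter of the barrier, was at 14.1, 14.1, 13.2 and 14.3 CPM and then 15.7, 15.9, 16.2 and 16.9 CPM (0.22, 0.05 to 0.38). Tjp1, the tight junction scaffold ZO-1, was at 113 ± 6.63 CPM and then 128 ± 1.79 CPM (mean ± SD, n = 4 each; 0.18, 0.04 to 0.33). For both genes the groups lay apart, and for Tjp1 the difference from wild type (0.41) passed. Lef1, a transcription factor of Wnt signalling in barrier endothelium that is also abundant in thalamus, was at 6.9, 5.61, 7.28 and 4.6 CPM and then 10.5, 17.6, 10 and 11.1 CPM. Its groups lay apart (1.01, 0.26 to 1.77, against -1.76 in wild type), and the difference of 2.77 passed. Thalamic transcripts moved with it (below), and their part in this value was not tested.

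Of 25 glucocorticoid-responsive genes tested, 14 were called higher in wild type (median 1) and 0 in the knockout (median 0.03). Fkbp5, a chaperone that dampens the glucocorticoid receptor, was at 69.2, 42, 48 and 58.9 CPM in the libraries labelled KO PBS and at 55.5, 43.8, 54 and 41.1 CPM in KO LPS, overlapping (-0.17, -0.78 to 0.45, against 1.25 in wild type). Plin4, a lipid droplet protein that rose by 4.29 in wild type, was at 24.4, 2.28, 4.81 and 6.78 CPM and then 7.3, 8.04, 4.11 and 4.71 CPM. Only the library labelled KO PBS 1 was far from the rest, and the log2 fold change of -0.68 (-2.39 to 1.04) was 0.4 without it. Tsc22d3, which encodes the anti-inflammatory protein GILZ, was at 70.9, 48.6, 49.2 and 47 CPM and then 60.6, 77.5, 70.8 and 73.3 CPM, with the library labelled KO PBS 1 among the LPS values (0.39, -0.02 to 0.79).

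Leukocyte transcripts were near the limit of detection. Of 27 neutrophil, monocyte and lymphocyte genes listed, 12 were tested, with a median of 0.26. At an unadjusted p below 0.05 there were 2, both higher (6.88% of all genes). In the knockout libraries alone 1 was higher and 1 lower (11.9% of all genes). Their score, the mean log2 difference from the KO PBS mean, was 0.27, -0.1, -0.16 and -0.01 in the libraries labelled KO PBS and -0.12, 0.46, 0.57 and 0.6 in KO LPS. KO LPS 1 lay with the PBS libraries and the other 3 above them. Ngp, a neutrophil granule protein, held 2, 1, 0 and 1 counts and then 0, 8, 13 and 12 counts. The granule genes S100a9 and Ltf, named after their values were seen because they belong with S100a8 and Ngp, held 7, 7, 2 and 0 and then 3, 8, 31 and 13 counts, and 1, 5, 0 and 1 and then 0, 5, 13 and 7 counts. In all 4 of these genes KO LPS 3 and 4 were above every library labelled KO PBS and KO LPS 1 was not. KO LPS 3 and 4 are also the male libraries of their group, and KO LPS 1 and 2 share a title code. Itgal, an integrin of leukocytes, was at 0.364 to 0.641 CPM and then 0.438, 1.34, 1.07 and 0.924 CPM (0.84, 0.08 to 1.6). Ccr2, the chemokine receptor of inflammatory monocytes, lay in the other direction, with 9, 9, 13 and 15 counts and then 5, 4, 6 and 10 counts, overlapping (-0.98, -2.12 to 0.15, or -1.95 to -0.01 in the knockout libraries alone). The neutrophil genes Mmp9 and Cxcr2, named after their values were seen, had log2 fold changes of -0.03 (-0.54 to 0.48) and -0.15 (-0.69 to 0.39) in the knockout libraries alone.

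The genes with the largest changes in wild type were read one by one in the knockout. They were taken among called genes with a mean log2 CPM of at least 1 over the libraries and no predicted genes, which leaves out larger changes at lower levels, such as those of Lcn2 and S100a8. Of the 10 largest rises by that rule, Plin4, Serpina3n, Irf7, Gbp4, Gbp2, Icam1, Ifitm3 and Psmb8 are described above. Chil1, a secreted chitinase-like protein of reactive astrocytes, was at 4.72, 5.73, 5.65 and 4.73 CPM in the libraries labelled KO PBS and at 5.64, 5.7, 7.13 and 7.18 CPM in KO LPS (0.3, -0.88 to 1.48, against 3.3 in wild type). Ctla2a, a cysteine protease inhibitor, was at 2.88 to 5.39 CPM and then 2.68 to 3.28 CPM (-0.32, -1.4 to 0.77, against 2.9). Both overlapped. The 5 largest falls by the same rule were the thalamus-rich genes Tnnt1 (slow troponin T), Prkcd (protein kinase C delta) and Synpo2 (an actin-bundling protein), with Nexn (an actin-binding protein) and Rab37 (a vesicle GTPase). In all 5 genes wild-type PBS 2 and 3 were the highest libraries of their group. Prkcd was at 35, 294, 299 and 36.8 CPM in wild-type PBS 1 to 4 and at 10.2 to 44.3 CPM in wild-type LPS. Tnnt1 was at 9.08, 31.3, 34 and 2.16 CPM in wild-type PBS and at 1.16 to 3.07 CPM in wild-type LPS. The wild-type falls thus rest largely on PBS 2 and 3. All 5 genes had positive knockout estimates, from 0.45 for Nexn to 1.58 for Tnnt1. Tnnt1 was at 10.8, 2.09, 6.07 and 1.81 CPM and then 13.8, 24.7, 16.4 and 8.08 CPM. The groups overlapped at the library labelled KO PBS 1 and KO LPS 4 (1.58, 0.07 to 3.1).

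The 10 genes with the smallest p for the difference between genotypes were chosen partly on the knockout values, which are therefore given as a description. Sccpdh, a lipid droplet protein, was at 57.9, 56.7, 59.2 and 53.4 CPM in the libraries labelled KO PBS and at 59.9, 58.7, 58 and 55.8 CPM in KO LPS (0.03, -0.09 to 0.15), against -0.57 in wild type. Wls, the carrier that brings Wnt proteins to the cell surface, was at 26.7, 30.8, 32.2 and 30.5 CPM and then 35.4, 35.2, 37.7 and 39.9 CPM, apart (0.3, 0.09 to 0.52, against -0.6). Mamstr, a coactivator of MEF2, was at 2.14, 2.46, 2.3 and 2.32 CPM and then 1.58, 1.8, 1.67 and 1.58 CPM, apart in the other direction (-0.47, -0.78 to -0.16, against 0.73). For Wls and Mamstr the estimates of the genotypes thus had opposite signs, and for Sccpdh the knockout estimate was near 0. The other 7 were Echdc1, Nkx2-9, Tmprss5, Smyd1, Mob3b, Sbsn and Slc25a28, with knockout log2 fold changes from -0.22 to 0.56.

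Within the knockout, genes with the smallest p in each direction among those whose groups lay apart, 12 per direction with 1 not reported here, are named next. Each had an adjusted p of 0.703, so the differences are descriptions. The genes were picked on knockout values, which the difference between genotypes also holds, so a passed difference among them is no separate support. Herc6, the main ISG15 ligase of the mouse, had the smallest p of those higher. It was at 6.07, 5.89, 6.75 and 6.68 CPM in the libraries labelled KO PBS and at 7.42, 11, 11.5 and 14.5 CPM in KO LPS, with KO LPS 1 the lowest of its group (0.8, 0.4 to 1.21). In wild type the log2 fold change was 0.52 and was not called, and the difference between genotypes did not pass (adjusted p = 0.559, edgeR). In wild-type LPS 1 to 4 Herc6 was at 15.4, 11.4, 14.7 and 9.66 CPM. It was thus highest in LPS 1, the library in which Irf7 was at the PBS level. Herc6 is known as an interferon-induced gene, and the interferon-stimulated list above, which does not hold it, was centred on 0.

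Egln3, an oxygen-sensing prolyl hydroxylase, was at 4.32, 4.76, 3.7 and 4.6 CPM and then 4.84, 6.51, 8.2 and 6.8 CPM (0.6, 0.27 to 0.93), and its difference from wild type (0.95) passed. Krt12, a keratin, was at 3.25, 1.79, 2.66 and 2.99 CPM and then 4.5, 5.48, 7.46 and 6.05 CPM (1.13, 0.47 to 1.8). Lin28b, which blocks let-7 processing, was at 3.99, 3.52, 3.92 and 2.92 CPM and then 5.21, 6.36, 5.65 and 6.44 CPM (0.72, 0.28 to 1.15). In each of these the lowest KO LPS library was above the highest labelled KO PBS, as the choice required. The other higher genes were Snx29, Casz1, a zinc finger transcription factor, Lypd6b, Spopl, Sik2, a salt-inducible kinase, and Ramac, a subunit of the mRNA cap methyltransferase, from 0.16 (Ramac) to 0.72 (Casz1), besides the immediate early gene Egr2.

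Of those with LPS lower, Thrsp, a regulator of fatty acid synthesis, was at 25.8, 27.9, 22.3 and 25.4 CPM in the libraries labelled KO PBS and at 18.6, 19.5, 18 and 18.5 CPM in KO LPS (-0.44, -0.65 to -0.23). Shmt2, the mitochondrial serine hydroxymethyltransferase, was at 22.5, 23.5, 20.8 and 21.8 CPM and then 20.5, 17.5, 17.7 and 18.8 CPM (-0.25, -0.4 to -0.1), and its difference from wild type (-0.45) passed. Pck2, the mitochondrial phosphoenolpyruvate carboxykinase, was at 33, 32.6, 31.7 and 34.3 CPM and then 28.5, 29.4, 22.2 and 26.8 CPM (-0.3, -0.48 to -0.12). These differences were small, each under 2-fold over its whole interval. Gadd45g, a stress-response gene, was at 11.7, 14.4, 11.2 and 12.5 CPM and then 9.12, 10.3, 9.95 and 9.99 CPM (-0.34, -0.52 to -0.16). Ap4m1, a subunit of the AP-4 sorting complex, had a log2 fold change of -0.25 and a difference from wild type (-0.5) that passed. The rest were Zfp647, Eme2, Echdc2, Mum1, Myg1, Sppl2b and Ttll3, from -0.21 to -0.78.

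Alternatives of the test called 3 genes in the knockout, namely Tceanc2, Zfp647 and Gm28439. Tceanc2 (ENSMUSG00000028619; chromosome 4, 107134155 to 107179116), which resembles a transcription elongation factor, was at 10.1, 20.3, 9.99 and 2.55 CPM in the libraries labelled KO PBS 1 to 4 and at 2.29, 2.1, 3.21 and 3.34 CPM in KO LPS. All 8 wild-type libraries were at 18.2 to 20.2 CPM. The library labelled KO PBS 2 was thus at the wild-type level, those labelled KO PBS 1 and 3 were near 10 CPM, and the library labelled KO PBS 4 was with the 4 KO LPS libraries. Its log2 fold change was -1.98 ± 0.39 (SE), it was called by DESeq2 (adjusted p = 0.00185), and it was called by edgeR without the library labelled KO PBS 4 (-2.3, adjusted p = 0.00115).

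Btf3l4, a relative of a basal transcription factor on the same chromosome (108814295 to 108833614), was named after its values were seen because it showed the same order. It was at 41.8, 70.4, 39.7 and 28.3 CPM in the libraries labelled KO PBS, at 27.5, 25.7, 28.8 and 25.3 CPM in KO LPS and at 61.8 to 82.2 CPM in wild type. The order of the libraries labelled KO PBS was 2, 1, 3, 4 for both genes. Echdc2, a mitochondrial enoyl-CoA hydratase-like protein that lies between them on chromosome 4 (108165437 to 108179308), was at 13.3, 17.1, 12.3 and 13.3 CPM and then 11.7, 9.46, 8.53 and 9.6 CPM. Its highest library was also the one labelled KO PBS 2, which lay above the wild-type range of 10.7 to 14.8 CPM. The libraries labelled KO PBS 1, 3 and 4 lay inside that range, so Echdc2 did not show the levels of Tceanc2 and Btf3l4.

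Zfp647, a zinc finger gene on chromosome 15 (76910371 to 76925448), the chromosome of Tspo, was at 3.84, 3.31, 3.16 and 4.23 CPM in the libraries labelled KO PBS and at 2.07, 2.32, 1.75 and 2.3 CPM in KO LPS. The groups lay apart (-0.78, -1.1 to -0.47; DESeq2 adjusted p = 0.0081), and the wild-type libraries, at 2.15 to 3.19 CPM, lay between and across them. Gm28439, an unprocessed pseudogene on chromosome 1, was at 0.19, 0, 0 and 0 CPM and then 20.9, 35, 136 and 0.507 CPM, and at 0 to 52.4 CPM in wild type. All 846 of its 31-base windows (100%) also occur in the mt-Nd4 transcript, so reads of the mitochondrial gene could be given to it and its level is uncertain.

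**Figure D4:**
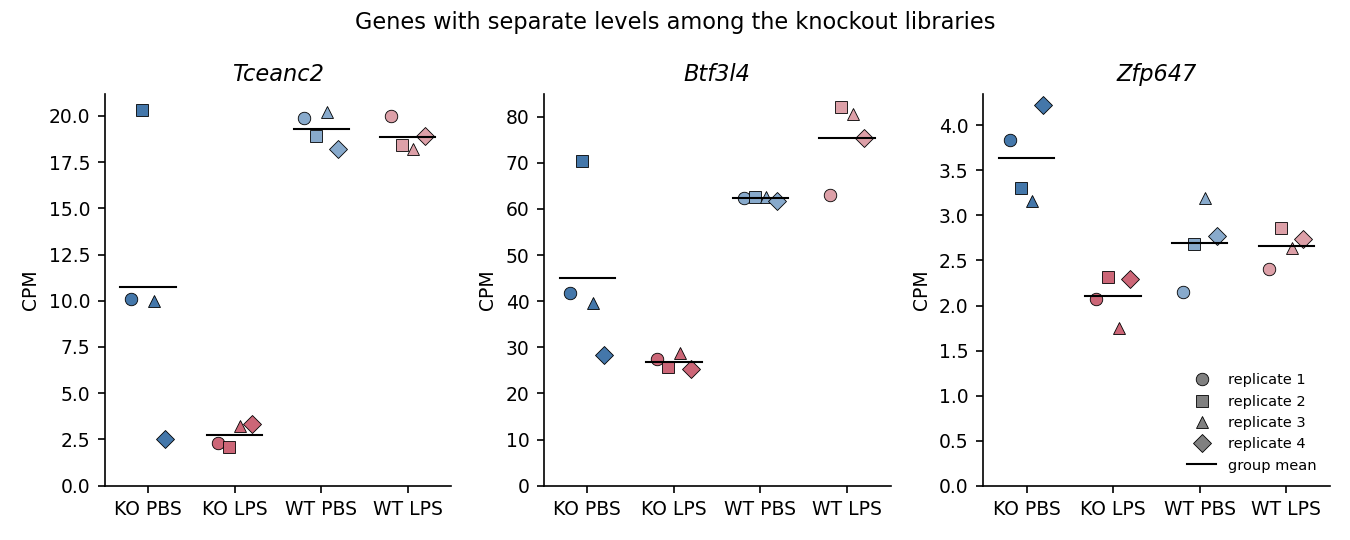
Tceanc2, Btf3l4 and Zfp647 in CPM (vertical axis, starting at 0) in each of the 16 libraries, by group (horizontal axis), with a symbol for each replicate number and a line at the group mean. For Tceanc2 the library labelled KO PBS 2 sits at 20.3 CPM among the wild-type libraries, those labelled KO PBS 1 and 3 at 10.1 and 9.99 CPM, and the library labelled KO PBS 4 at 2.55 CPM with the KO LPS libraries.

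Some neuronal activity genes had higher values in KO LPS, without passing the test. Of 26 immediate early genes listed 25 were tested, 18 with estimates above 0, and the median was 0.26 (0.27 in wild type, 1 called higher). An unadjusted p below 0.05 was found for 5 of them, all higher (6.88% of all genes). Egr2 was at 2.87, 1.58, 3.36 and 3.69 CPM in the libraries labelled KO PBS and at 3.96, 5.41, 8.12 and 13.3 CPM in KO LPS, apart (1.42, 0.64 to 2.2). Fosb, a partner in the AP-1 factor, was at 12.7, 11.1, 11.9 and 10.4 CPM and then 13, 14.4, 21.8 and 23.9 CPM (0.66, 0.18 to 1.14). Egr1, the most used marker of recent activity, was at 217, 133, 167 and 218 CPM and then 224, 312, 270 and 471 CPM (0.8, 0.09 to 1.51). KO LPS 4 was the highest library for all 3. Arc, a synaptic plasticity gene, was at 123, 96.1, 136 and 192 CPM and then 107, 174, 113 and 441 CPM, and its log2 fold change of 0.61 (-0.28 to 1.5) became -0.06 without KO LPS 4 and 0.36 without the libraries labelled KO PBS 1 and KO PBS 2. The list score was 0.77 in KO LPS 4, -0.05 to 0.12 in the other 3 and -0.21 to 0.29 in the libraries labelled KO PBS. Without the libraries labelled KO PBS 1 and KO PBS 2 the median of the list was 0.11.

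Clock genes showed small differences in the same direction. Of 21 tested, 20 had estimates above 0 and 4 an unadjusted p below 0.05 (6.88% of all genes). The median was 0.13 (0.11 in wild type, 2 called higher). Per1, a clock gene that glucocorticoids also induce, was at 106, 74.9, 101 and 108 CPM in the libraries labelled KO PBS and at 133 ± 19.5 CPM in KO LPS (mean ± SD, n = 4), the highest being 162 CPM in KO LPS 4. The groups lay apart (0.45, 0.14 to 0.76, against 0.42 in wild type). Per2, its partner in the repressor complex, was at 45.3, 29.2, 38.3 and 41.9 CPM and then 50.7, 46.1, 45.6 and 54.3 CPM, apart (0.35, 0.04 to 0.65). Collection times are not given in the labels.

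Genes that mark other brain regions were read as lists, and none of their members passed the test. Of 11 cortical genes tested, 4 had an unadjusted p below 0.05 (6.88% of all genes), all higher. The median of the 11 was 0.43 (0.14 in wild type). Lamp5, a marker of superficial cortical neurons and of some interneurons, was at 45.2, 30.2, 42.4 and 42.9 CPM in the libraries labelled KO PBS and at 41.4, 65.5, 87.5 and 98.5 CPM in KO LPS. KO LPS 2, 3 and 4 lay above the libraries labelled KO PBS and KO LPS 1 among them (0.86, 0.19 to 1.54). Cux2, a factor of upper layer neurons, was at 37.7, 34, 33.1 and 32.8 CPM and then 40.5, 56.9, 56.6 and 68.2 CPM (0.69, 0.07 to 1.31), and Rorb, of layer 4 and of the clock list, at 15.4 to 18.5 CPM and then 18.9 to 34 CPM (0.75, 0.19 to 1.3).

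Hippocampal subfield genes went the other way, with 5 of 26 estimates above 0 and a median of -0.29 (0.17 in wild type, 1 called higher). At an unadjusted p below 0.05, 2 of the 26 were lower over all 16 libraries and 14 over the 8 knockout libraries alone, where 1 was higher. Over all genes the shares with such a p, in either direction, were 6.88% and 11.9%. Grik4, a kainate receptor subunit of CA3, was at 52.9, 54.5, 55.7 and 68.2 CPM and then 46.8, 43.9, 37.4 and 38.6 CPM, apart (-0.47, -0.89 to -0.05). Pou3f1, of CA1, was at 65.2, 49.5, 61.9 and 62.8 CPM and then 49, 44.7, 48.1 and 51.4 CPM, overlapping at the library labelled KO PBS 2 (-0.31, -0.57 to -0.05). Zbtb20, which specifies hippocampal identity, was at 239 to 319 CPM and then 210 to 262 CPM (-0.35, -0.81 to 0.1). KO LPS 4 had the highest cortical score, 0.62, and the lowest hippocampal score, -0.39. The part of the cortical, hippocampal and thalamic lists in other differences was not tested.

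Thalamic and habenular genes had a knockout median of 0.65, or 1.06 without the libraries labelled KO PBS 1 and KO PBS 2, against -1.31 in wild type, where 7 were called lower and 1 higher. The thalamus-rich genes Tnnt1, Prkcd and Synpo2 were high mainly in wild-type PBS 2 and 3 (above), so the wild-type fall cannot be read as an LPS effect alone. In the knockout the list score was 0.62, 1.18, 0.7 and 0.47 in KO LPS and 0.38, 0.39, 0.09 and -0.86 in the libraries labelled KO PBS. Prkcd was at 73.8, 60.1, 48.8 and 20.1 CPM and then 91.9, 188, 105 and 37.4 CPM, overlapping (1.06, -0.43 to 2.55). Pou4f1, a factor of habenular neurons, held most of its signal in KO LPS 4, at 2.12 CPM against at most 0.39 CPM in the other 7. The median of cerebellar genes, -1.02, was 0.28 without the libraries labelled KO PBS 1 and KO PBS 2.

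**Figure D5:**
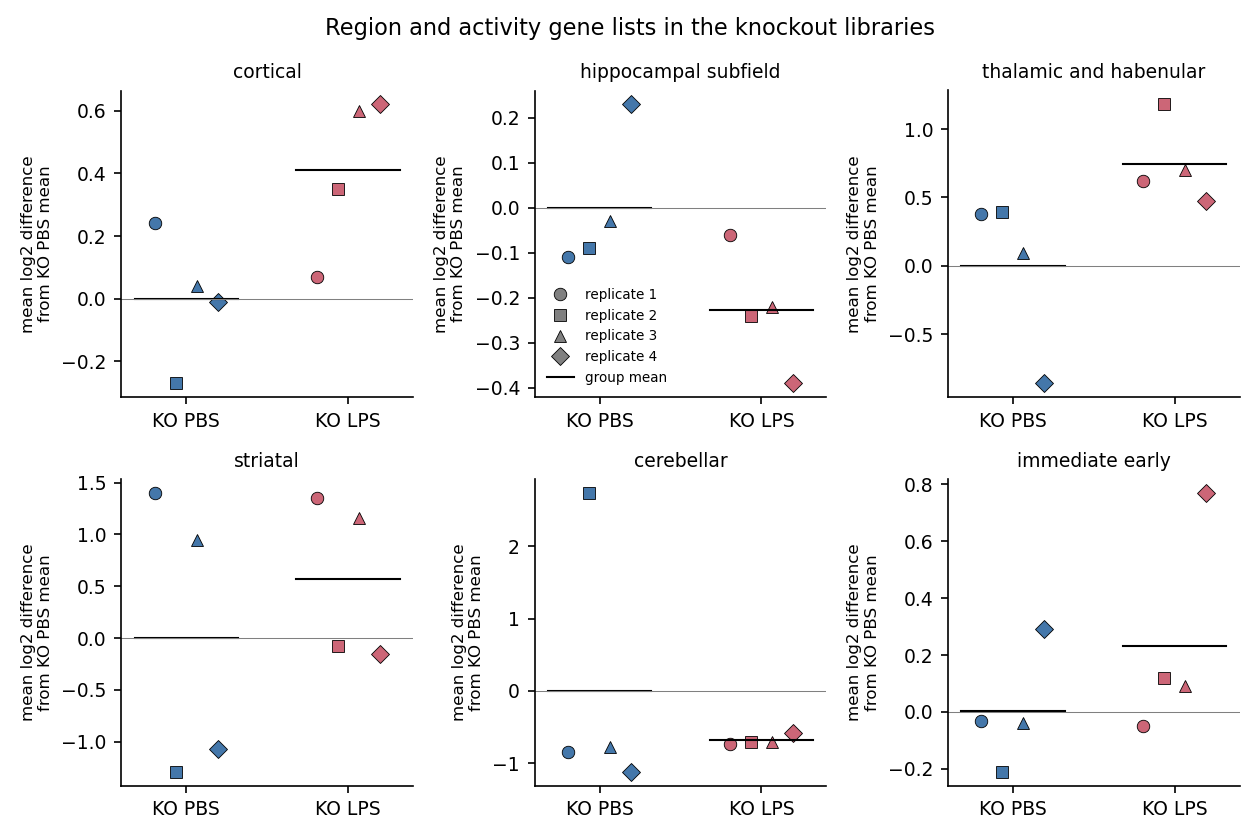
Mean log2 difference from the KO PBS mean (vertical axis) over the tested genes of 6 lists, in each of the 8 knockout libraries by group (horizontal axis), with a symbol for each replicate number and a line at the group mean. Cortical scores reach 0.6 and 0.62 in KO LPS 3 and 4, the cerebellar score is 2.74 in the library labelled KO PBS 2, and the immediate early score is 0.77 in KO LPS 4.

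Myelin genes had mostly small negative estimates in the knockout, and none passed the test. Of 23 oligodendrocyte and myelin genes, 16 were called lower in wild type (median -0.87) and 0 in the knockout (median -0.08). The knockout estimates ran from -0.22 to 0.07, with 2 of 23 above 0. At an unadjusted p below 0.05 there were 0 over all 16 libraries. In the knockout libraries alone there were 3, all lower (11.9% of all genes in either direction). Mbp, myelin basic protein, was at 3650, 2910, 3450 and 2890 CPM in the libraries labelled KO PBS at 2980, 3330, 3070 and 3120 CPM in KO LPS, overlapping (-0.04, -0.47 to 0.38, against -0.52 in wild type, where it was not called). The 25 cholesterol synthesis genes had a knockout median of 0.1 against -0.5 in wild type, where 11 were called lower.

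The partners of TSPO and the enzymes of steroid synthesis gave 2 of 22 tested genes at an unadjusted p below 0.05, both lower (6.88% of all genes). Their median was -0.06 (-0.03 in wild type, 2 called lower). The groups lay apart in 4 genes (6.55% of all genes), 2 with LPS higher and 2 with LPS lower. In the knockout libraries alone 1 gene was higher and 2 lower at an unadjusted p below 0.05 (11.9% of all genes). The 1 higher, named after its value was seen, was Cyp46a1, the cholesterol 24-hydroxylase of neurons (0.24, 0.03 to 0.45). Dbi, the acyl-CoA-binding protein that is an endogenous TSPO ligand, was at 96.3, 108, 94.9 and 87.5 CPM in the libraries labelled KO PBS and at 83.6, 75.5, 79.8 and 75.2 CPM in KO LPS. The groups lay apart (-0.3, -0.61 to 0.01 over all 16 libraries and -0.46 to -0.14 in the knockout libraries alone). Atad3a, a mitochondrial membrane ATPase, was at 33.9 to 36.3 CPM and then 27.6 to 34.2 CPM (-0.18, -0.33 to -0.03, or -0.33 to -0.02 in the knockout libraries alone), and Fdxr, the reductase that feeds electrons to steroid-making cytochromes, at 12.1 to 15.1 CPM and then 8.2 to 12.7 CPM (-0.27, -0.52 to -0.02, or -0.58 to 0.05 in the knockout libraries alone). For Fdxr the log2 fold change was -0.12 without the libraries labelled KO PBS 1 and KO PBS 2.

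Fatty acid oxidation, in which TSPO has also been placed, gave 4 of 21 genes at an unadjusted p below 0.05, all lower (6.88% of all genes). The list held 2 estimates above 0, with a median of -0.1 (0 in wild type). Hadha, a subunit of the mitochondrial trifunctional protein, was at 76.4, 73, 77.7 and 73.1 CPM and then 71.1, 68.5, 67.2 and 63.3 CPM, apart (-0.15, -0.29 to -0.01). Cpt1c, the brain carnitine palmitoyltransferase, was at 116, 109, 117 and 136 CPM and then 116, 102, 90 and 96.9 CPM, overlapping (-0.24, -0.44 to -0.04). All 21 intervals lay inside 2-fold. The score of genes of the mitochondrial genome was 0.29, 0.19, 0.39 and -0.24 in KO LPS and -0.07 to 0.06 in the libraries labelled KO PBS. For example mt-Atp6, a subunit of ATP synthase, was at 4820, 4440, 4710 and 4460 CPM and then 5580, 5440, 6010 and 4110 CPM (0.2, 0 to 0.39).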

How the data were processed

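RNA from hippocampus was sequenced in 16 libraries. The authors deposited a table of estimated counts of reads per gene and library, not scaled for depth. Salmon 1.9.0, MultiQC 1.13, DESeq2 and DESeq are named, without their part, per the submitters' processing notes; the genome build and annotation are not given in the sources used here. All values of the 19449 genes were whole, so no rounding was needed. Groups came from the titles. Symbols and positions were taken from GENCODE M21 on GRCm38 (105 identifiers, with 0.0537% of the counts, were absent) and promoters from RefSeq on GRCm38.p6.

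Genes were kept by filterByExpr of edgeR 4.0.16 in R 4.3.3 (16269 kept, 3180 removed), scaled by TMM and fitted with a quasi-likelihood model over all 16 libraries with a mean per group. The F test gave each p, adjusted by Benjamini-Hochberg over all genes tested at 0.05. The SE is the size of the log2 fold change divided by the root of F. Fold changes are estimates on the log2 scale with 95% intervals, and log2 CPM uses a prior count of 2. Markers were compared by exact two-sided permutation tests over 70 splits. Replicates were compared by chi-square per degree of freedom. It was 12.3 to 41.3 within the knockout groups, so no knockout library was counted as a repeat. Between wild-type PBS 2 and 3 it was 3.78, and it was 20.2 to 113 in the other wild-type pairs. The labels do not say if those 2 are repeats. The main fit counts them as 2 libraries, and an alternative sums them. The reads carry no molecular identifiers, and intervals hold the spread between libraries.

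Alternatives were RLE scaling, DESeq2 1.42.0, limma-voom 3.58.1 with sample weights, no filter, CPM of at least 1 in 4 libraries, a prior count of 0.5, sex as a covariate, the replicate number as a block, fits of 8 libraries alone, leaving out each library, and leaving out both the library labelled KO PBS 1 and the library labelled KO PBS 2. Some were added after seeing the data: fits of the knockout libraries alone without either or both of those libraries or with sex, and the sum of wild-type PBS replicates 2 and 3. The pipeline was tested on simulated data.

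The genes named are Tspo, Lcn2 and S100a8; up to 12 per direction with the smallest p in the knockout among those with groups apart, mean log2 CPM 1 or more, and no predicted or sex-linked gene; of each list described up to 4 with the smallest p and 2 with the highest level; the 10 largest rises and 5 largest falls among genes called in wild type, with the same limits on level and name; the 10 smallest p for the difference; and genes an alternative called in the knockout where it called few. Genes outside this rule are marked as such, and a few that it names are not reported here. The comparison, the 36 lists and the genes in them were chosen with earlier results of these data known.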

Additional observations from a re-analysis of the deposited data

Results flagged for a closer look

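In 4 libraries of a group, a highest or lowest value was taken as standing apart when its gap to the next, as a share of the group's range, exceeded Dixon's critical value. Over 123 genes and 36 gene lists 318 groups were examined, and chance alone marks about 1 group in 20. It marked 12 gene values and 6 list scores. Of the 12, 5 were in the library labelled KO PBS 2: Cbln3 (302 CPM) and Eomes, a factor of unipolar brush and newborn neurons (2.88 CPM), were high there, and Egr3, an activity-induced zinc finger factor (92 CPM), Lamp5 (30.2 CPM) and mt-Nd6, a subunit of complex I (129 CPM), were low. The library labelled KO PBS 1 was high for Tsc22d3 (70.9 CPM), Tmprss5, a membrane serine protease (1.66 CPM), and Gm28439 (0.19 CPM, the others being at 0). KO LPS 4 was high for Tmprss5 (1.79 CPM), KO LPS 3 low for Fdxr (8.2 CPM) and Sbsn, a secreted epithelial protein (7.4 CPM), and KO LPS 1 low for Irf7 (0.997 CPM).

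Of the list scores, as mean log2 difference from the KO PBS mean, cerebellar genes (2.74) and genes of neurogenesis and cell division (0.27) were high in the library labelled KO PBS 2. Interferon-stimulated genes were high in the library labelled KO PBS 3 (0.11) and cerebellar genes in KO LPS 4 (-0.58, against -0.73 to -0.71 in the other 3). Acute-phase genes were low in KO LPS 1 (-0.42), and pericyte and smooth muscle genes in KO LPS 3 (-0.24).

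The LPS effect differed between knockout and wild type, by the test of the difference in edgeR, for 24 of the genes named; each value here is the log2 difference, knockout minus wild type. Lower in the knockout were Lrg1 (-3.9), Gbp4 (-3.7), Irf7 (-3.69), Ctla2a (-3.22), Ifitm3 (-3.19), Gbp2 (-3.1) and Psmb8 (-2.8), with Mamstr (-1.2), Sbsn (-0.88), Slc25a28, a mitochondrial iron carrier (-0.65), Ap4m1 (-0.5) and Shmt2 (-0.45). Higher were Gm28439 (13.18, its level being uncertain), Tnnt1 (5.09), Nkx2-9, a homeobox factor (3.06), Lef1 (2.77), Tmprss5 (2.42), Smyd1, a methyltransferase of muscle (2.27), and Mob3b, a kinase activator (1.28). Smaller values were found for Egln3 (0.95), Wls (0.91), Sccpdh (0.6), Echdc1, an enzyme that removes ethylmalonyl-CoA (0.52), and Tjp1 (0.41). For Tnnt1 the wild-type PBS level was highest in PBS 2 and 3 (above). The 10 genes with the smallest p for this difference were picked by it. Others were picked on knockout or wild-type values that it also holds, so these calls are descriptions. The 187 calls over all genes were 63 with RLE scaling and 0 without the libraries labelled KO PBS 1 and KO PBS 2.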

How the results depend on the processing

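The count of 0 genes in the knockout comparison was 0 under 28 of 31 alternatives. It was 3 with DESeq2, 1 with the replicate block in the 8 knockout libraries alone (Gm28439), and 0 to 1 leaving out each library (Tceanc2, without the library labelled KO PBS replicate 4). In wild type the 1394 calls were 2096 with DESeq2, 4684 with limma-voom, 0 in a fit of the 8 wild-type libraries alone (3012 at an unadjusted p below 0.05), 670 with wild-type PBS replicates 2 and 3 summed and 538 to 3380 leaving out each library; the highest came without wild-type LPS 1, and those without wild-type PBS 2 or 3 or LPS 2, 3 or 4 were 625, 621, 758, 538 and 694. The difference of 187 calls was 63 with RLE scaling, 39 with no filter, 42 with the CPM filter, 1281 with DESeq2, 4029 with limma-voom, 40 with sex, 0 without the libraries labelled KO PBS 1 and KO PBS 2, 0 with the summed replicates and 0 to 2655 leaving out each library, where only the fit without wild-type PBS 1 (176) came within 1.5 times and the highest was without wild-type LPS 1. The cause of these shifts was not tested.

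The replicate numbers did not pair the samples: same-numbered KO LPS and KO PBS libraries had correlations of 0.03, -0.01, 0.07 and -0.13 of their deviations, and only number 3 had its own number as best partner. With the replicate block over all 16 libraries the knockout count was 0, the wild-type count 1069 and the difference count 0. Leaving out each library, the Tspo difference ran from -1 to 0.18 and that of S100a8 from 0.6 to 1.87; that of Lcn2 kept its sign. Of 1593 recomputed values for 123 named genes, 1566 kept sign and side of the threshold, 26 in 14 genes changed sign without a call in either, and 1 (Tceanc2) was called.

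With 4 libraries a group an exact test cannot go below 0.0286. Genes under about 3 counts, such as Lcn2 in the knockout, hold too few counts for a fold, and the spread between libraries limits the rest.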

Other observations

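Blood and ventricle transcripts varied between knockout libraries. Hba-a2, an alpha globin gene of red cells, was at 63.1, 4.46, 47.4 and 7.11 CPM in the libraries labelled KO PBS 1 to 4 and at 3.87, 43.9, 49.7 and 8.41 CPM in KO LPS 1 to 4, so that each group held 2 high and 2 low libraries. Ttr, the thyroid hormone carrier made by choroid plexus, was at 1740, 785, 2070 and 1750 CPM and then 1360, 854, 2130 and 771 CPM. Choroid plexus genes had a knockout median log2 fold change of -0.3, or -0.59 without the libraries labelled KO PBS 1 and KO PBS 2, with 2 of 20 estimates above 0, and ependymal and motile cilia genes -0.27, or -0.43, with 1 of 18 above 0. The ependymal score, the mean log2 difference from the KO PBS mean, was -0.03, -0.43, -0.08 and -0.41 in KO LPS and 0.06, -0.48, 0.32 and 0.1 in the libraries labelled KO PBS, so that every KO LPS library lay below the libraries labelled KO PBS 1, 3 and 4 and above the library labelled KO PBS 2. No gene of either list passed the test. Nos1, which marks neurons that make nitric oxide, was at 130, 139, 129 and 141 CPM and then 135, 102, 87 and 94.5 CPM, with KO LPS 1 at the PBS level and the other 3 below it.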
